A study of Mus musculus with 44 samples.

Results

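In granulosa cells of Smad3 PA/PA mice, 21336 H3K27ac regions were built from overlapping peaks of both vehicle-treated libraries, and 1261 of them (5.91%) overlapped no H3K27ac peak of either GDF9-treated library. These 1261 vehicle-only regions are described here. They were selected by the presence and absence of called peaks, so their lack of a peak with GDF9 is the selection itself and is not a result. A missing peak means that the peak caller listed none, and coverage between peaks was not analysed here, so the mark itself may have been present at any level below the calling threshold. Of the other vehicle regions, 2952 (13.8%) had a peak in 1 of the 2 GDF9 lists and 17123 (80.3%) had a peak in both.

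The cells were primary granulosa cells, the somatic cells that surround and support the oocyte, pooled from several females 3 to 4 weeks old that had been primed with gonadotropin, cultured, and treated for 4 h with mouse GDF9 or with vehicle. All Smad3 PA/PA groups carried the PA tag on both copies of Smad3, and all Smad2 HA/+ groups carried an HA tag on 1 copy of Smad2, vehicle groups included, with 2 replicates per line, antibody and treatment. H3K27ac, SMAD2, PA (tagged SMAD3) and SMAD4 were profiled in Smad3 PA/PA cells, and H3K27ac, SMAD2, HA (tagged SMAD2) and SMAD3 in Smad2 HA/+ cells. The RNA-seq samples were GDF9 and vehicle cells whose labels give no genotype and which the study's methods place in the Smad3 PA/PA line. The labels do not say whether replicates came from separate cultures, so the tests see only the spread among the samples at hand, which can be technical.

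Acetylation of lysine 27 on histone H3 marks active promoters and enhancers, and it is deposited by coactivators such as p300 and CBP that transcription factors recruit. GDF9 is a TGF-beta family ligand released by the oocyte. Its receptors on granulosa cells phosphorylate SMAD2 and SMAD3, which join SMAD4 and bind DNA together with other factors. The response of granulosa cells includes matrix production around the oocyte, called cumulus expansion.

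The windows below show what vehicle-only regions looked like at their summit, the position of maximum coverage. Slc16a6, Srbd1 and Zpld1 held the leading regions by height, Vangl1 and Psd3 held the leading regions with the same pattern in the other line, and Pmepa1 and Plau, chosen after their values were seen, had a region near a start site and a changed RNA level. Each line gives the summit base and 100 bases on either side of it, on the reference plus strand (mm10, GRCm38) and 5′ to 3′, and capitals mark every match on either strand to any of the 11 short sequence cores described further on. The Slc16a6 window held no core, while the Plau window held a SMAD core, an AP-1 core and an NR5A core.
Slc16a6, chr11:109460404-109460604: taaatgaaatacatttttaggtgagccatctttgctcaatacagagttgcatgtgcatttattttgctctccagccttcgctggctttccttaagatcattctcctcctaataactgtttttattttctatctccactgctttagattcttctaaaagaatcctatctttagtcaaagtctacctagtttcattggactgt
Srbd1, chr17:86134761-86134961: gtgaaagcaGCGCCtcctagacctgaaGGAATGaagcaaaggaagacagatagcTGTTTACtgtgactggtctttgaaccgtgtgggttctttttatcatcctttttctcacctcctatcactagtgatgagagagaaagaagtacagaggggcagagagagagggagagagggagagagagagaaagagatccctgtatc
Zpld1, chr16:55278360-55278560: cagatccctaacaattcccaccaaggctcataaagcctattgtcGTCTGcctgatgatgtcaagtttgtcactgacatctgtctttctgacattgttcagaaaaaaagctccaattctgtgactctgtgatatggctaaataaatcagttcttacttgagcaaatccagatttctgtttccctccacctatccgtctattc
Vangl1, chr3:102169342-102169542: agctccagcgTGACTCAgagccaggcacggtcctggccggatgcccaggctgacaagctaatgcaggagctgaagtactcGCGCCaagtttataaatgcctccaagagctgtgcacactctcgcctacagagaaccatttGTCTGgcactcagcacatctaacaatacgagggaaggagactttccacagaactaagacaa
Psd3, chr8:68000572-68000772: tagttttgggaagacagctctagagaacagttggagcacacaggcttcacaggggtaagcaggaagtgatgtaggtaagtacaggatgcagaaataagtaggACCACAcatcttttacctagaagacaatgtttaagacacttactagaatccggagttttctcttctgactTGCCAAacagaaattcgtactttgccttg
Pmepa1, chr2:173233180-173233380: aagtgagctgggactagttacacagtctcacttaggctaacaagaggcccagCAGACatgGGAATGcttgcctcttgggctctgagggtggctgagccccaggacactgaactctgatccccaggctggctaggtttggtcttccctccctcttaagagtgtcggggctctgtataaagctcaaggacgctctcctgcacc
Plau, chr14:20832098-20832298: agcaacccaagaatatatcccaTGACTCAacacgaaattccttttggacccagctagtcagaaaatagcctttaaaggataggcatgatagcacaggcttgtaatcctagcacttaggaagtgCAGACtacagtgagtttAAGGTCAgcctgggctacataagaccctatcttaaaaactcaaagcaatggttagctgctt

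The Smad3 PA/PA H3K27ac lists held 29381 and 29241 peaks with vehicle and 27754 and 27587 with GDF9. Coverage was scaled to an E. coli spike-in. The lower maxima of each list, the only ones checked, were whole multiples of 1 value per library (within 0.05 fragments). Heights are therefore given here as fragments at the summit. The median peak of these 4 lists had only 12 to 13 fragments at its summit, and the lowest had 4. In the RNA-seq samples the markers of granulosa cells summed to between 29745 and 30651 normalised counts, the endothelial markers to between 22.2 and 41.6, the oocyte markers to between 27.6 and 34.6 and the macrophage markers to between 101 and 127. The theca markers summed to between 7850 and 8254, with Insl3 at 0 in all libraries, the stroma markers to between 1664 and 1734 and the surface epithelium markers to between 3731 and 3914.

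The vehicle-only regions were low and narrow. Their summits held a median of 9 fragments in vehicle replicate 1 (range 5 to 22) and 10 in replicate 2 (range 5 to 24). Regions with a peak in 1 GDF9 list had medians of 10 and 11, and regions with a peak in both had 14 and 16. Only 73 of the 1261 (5.79%) reached the median height of the list in both vehicle replicates, against 12.2% and 64.5% of the other classes. The median width was 3393 bp (interquartile range 2758 to 4257), similar to the 3427 bp of regions with a peak in 1 GDF9 list and below the 4715 bp of regions with both.

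**Figure D1:**
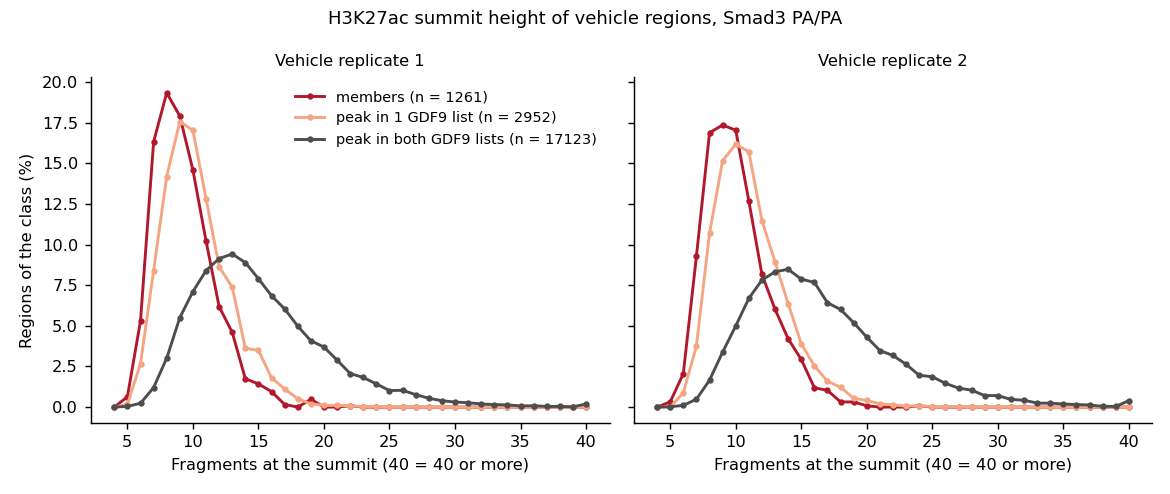
Share of vehicle regions (y axis, %) by the number of H3K27ac fragments at the summit (x axis) in each vehicle replicate, for the 1261 vehicle-only regions (members), the 2952 with a peak in 1 GDF9 list and the 17123 with a peak in both. The vehicle-only curves peak lowest in both replicates, near the median of 9 and 10 fragments, and overlap widely with the regions kept in 1 list.

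The total signal over a peak is what the caller compares with its threshold. The median vehicle-only region had 1.26 times the lowest total of the list in vehicle replicate 1 and 1.27 times in replicate 2. The corresponding medians were 1.40 and 1.42 for regions with a peak in 1 GDF9 list and 2.72 and 2.77 for regions with both. In both vehicle lists, 58.4% of the vehicle-only regions lay under 1.5 times the lowest total. This held for 38.8% of the regions kept in 1 GDF9 list and 6.996% of those kept in both. Over 2 times the lowest lay 30 vehicle-only regions (2.38%), against 7.59% and 60.4%. Most of them stood close to the lowest total that was called at all.

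The lowest totals themselves differed between lists. On the deposited scale they were 8922 and 12259 with vehicle and 7975 and 12634 with GDF9. In vehicle replicate 1, 863 of the vehicle-only regions (68.4%) had a total under the lowest total called in GDF9 replicate 2. This held for 51.5% of the regions kept in 1 GDF9 list and 17.99% of all other vehicle regions. By the mean total of both vehicle lists it was 387 (30.7%), against 16.2% and 4.13%. No vehicle total lay under the lowest of GDF9 replicate 1. Counted in fragments, the lowest totals were 7399 and 8482 fragment-bases with vehicle and 7052 and 7056 with GDF9, so no GDF9 list had a higher minimum by that measure. The part of the thresholds in the missing peaks was not tested. In the opposite direction, 20417 regions were built from both GDF9 lists and 610 (2.99%) overlapped no vehicle peak.

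Replicate 1 and replicate 2 gave similar heights at these regions. The summits differed by at most 2 fragments in 847 of the 1261 (67.2%). This held for 62.0% of the regions kept in 1 GDF9 list and 51.4% of all other vehicle regions, which were higher. Summits lay within 500 bp of each other in 715 (56.7%), against 59.3% and 61.1%. At the edge of the selection, a region near Aftph lay 14 bp from the nearest GDF9 peak and had summits of 11 and 10 fragments, and a region near Ccni lay 56 bp away with 10 and 11. Just outside it, a region near Rnf14 shared 4 bp with a GDF9 peak and had 6 and 9 fragments, and a region near Cebpz shared 30 bp with 12 and 9. The regions on both sides of the edge had like heights, and 140 vehicle-only regions lay within 1 kb of a GDF9 peak.

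Most vehicle-only regions lay in neighbourhoods that kept called peaks. The median distance to the nearest GDF9 H3K27ac peak was 6055 bp, 806 (63.9%) had such a peak within 10 kb and 65 had none within 100 kb. As they made up 5.91% of the vehicle regions, most would stand alone in a random order too, and no such order was computed. Going along the chromosomes from 1 vehicle region to the next, 1065 stood alone, 87 pairs and 6 triples followed each other, and 1 run of 4 spanned 130 kb at Chsy1 and Lrrk1 on chromosome 7. They made up between 4.60% (chromosome 19) and 8.13% (chromosome 18) of the vehicle regions of a chromosome.

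**Figure D2:**
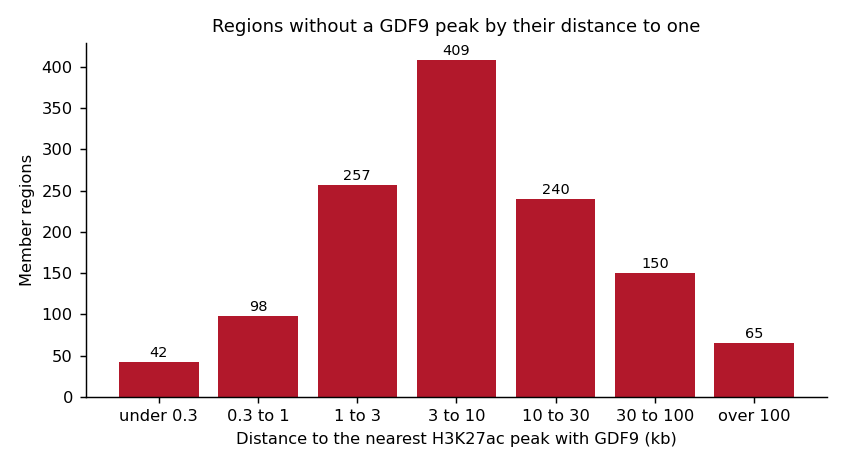
Number of vehicle-only regions (y axis) by distance in kb to the nearest H3K27ac peak of either GDF9 list (x axis, unequal bins on a roughly logarithmic scale). The tallest bar holds the 409 regions that lie 3 to 10 kb from a GDF9 peak, and 65 lie over 100 kb away.

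The vehicle-only regions were more often distal than regions with a peak in both GDF9 lists. A start site lay within 3 kb of 479 (38.0%), compared with 40.04% of the regions with a peak in 1 GDF9 list and 59.3% of those with both. The summit fell in an intron in 51.5%, within 3 kb of a start site in 28.9%, between genes in 15.1% and in an exon in 4.52%, whereas the other vehicle regions had 36.8%, 47.2%, 13.3% and 2.63%. The DNA was poorer in CpG, with a median of 9.14 CpG per kb against 12.5 and a GC content of 43.5% against 45.2%, and repeats covered 20.11% and 19.97%. The regions kept in 1 GDF9 list, which were nearly as low, had 9.80 CpG per kb.

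The highest vehicle-only region lay in an intron of Slc16a6, which encodes a monocarboxylate transporter (chr11:109459776-109461108, mm10). It had 15 and 24 fragments in the vehicle replicates, and the nearest GDF9 peak was 32803 bp away. A region in an intron of Srbd1 (chr17:86133600-86136125) had 22 and 17 fragments. A region in an intron of Zpld1 (chr16:55278069-55279919) had 19 and 18. These 3 were narrow, at 1333, 2526 and 1851 bp, and their totals were between 1.15 and 2.01 times the lowest of their lists. Of the 10 highest, only the region at A530020G20Rik and Slc44a3 (chr3:121533594-121537384, 19 and 15 fragments) had a start site within 3 kb, 1190 bp away, and it lay 744 bp from a GDF9 peak.

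The widest vehicle-only regions were broad and flat instead. An intronic region of Msi2, which encodes an RNA-binding protein (chr11:88435221-88447613), spanned 12393 bp with summits of 9 and 10 fragments. Regions in introns of Arih1, Mapre1, Ash1l and Kifc3 spanned 11509, 11089, 10892 and 9473 bp, and no summit exceeded 12 fragments. Their totals were 1.91 to 4.35 times the lowest of the list. A GDF9 peak lay within 588 to 7855 bp of each of these 5.

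Smad2 HA/+ cells gave a measurement of the same mark that had no part in the selection, and most of the vehicle-only regions had H3K27ac there with both treatments. A peak overlapped 81.8% and 79.4% of them in the vehicle replicates and 84.5% and 84.1% in the GDF9 replicates. Both GDF9 values lay above both vehicle values. The mean difference was 3.65 percentage points higher with GDF9 (exact permutation test, two-sided, p = 0.33, the smallest that 2 against 2 allows). The other vehicle regions moved in the same direction, by 2.88 points, from 93.6% to 96.5%.

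All 4 Smad2 HA/+ lists had a peak at 917 of the vehicle-only regions (72.7%) and no list had one at 124 (9.83%), against 90.8% and 1.77% of the other vehicle regions. The share was lower for the vehicle-only regions than for the others in 4 of 4 libraries, by 12.1 to 13.5 percentage points (exact paired permutation test over libraries, two-sided, p = 0.125, the smallest that 4 allow). Regions kept in 1 GDF9 list lay between, at 83.6% to 90.4%. The Smad2 HA/+ peaks were far broader, with a median width per list of 18565 to 29257 bp and a median summit of 108 to 128 fragments, so an overlap can mean only that a region lay inside a broad acetylated domain. When only the centre of a region counted, the difference was 12.1 to 13.7 points.

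The pattern of the selection, peaks in both vehicle lists and in neither GDF9 list, recurred in Smad2 HA/+ cells at 7 of the 1261 regions (0.555%), compared with 24 of 20075 others (0.120%). The converse pattern was seen at 31 of the 1261 (2.46%) and at 276 of the others (1.37%). The 7 lay at Vangl1, Psd3, Ptprg, Thsd7b, Rnf130, Rnaseh2b and Fbxl17. The region at Vangl1, a planar cell polarity gene (chr3:102167468-102171999, 495 bp from a start site), had 75 and 100 fragments in the Smad2 HA/+ vehicle libraries and 11 and 10 in those of Smad3 PA/PA cells. The intronic region of Psd3 (chr8:68000015-68002670) had 45 and 114, and 9 and 12. Regions at the start sites of Rnf130, a ubiquitin ligase gene, and of Rnaseh2b, which encodes a subunit of ribonuclease H2, had 53 and 60, and 59 and 53 fragments. All 7 were below the median summit of their Smad2 HA/+ vehicle lists, which was 124 and 128.

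Peak height in Smad2 HA/+ cells was fitted over the 7721 domains that had a peak in all 4 lists (limma on log2 maximum signal). Of these, 56 (0.725%) differed between treatments at an adjusted p under 0.05, 54 higher and 2 lower (0.0259% lower). A total of 885 domains, with a median width of 103 kb, overlapped a vehicle-only region, and 4 of them were higher with GDF9 and 0 lower by limma (unadjusted p under 0.05 in 138, of which 7 lower, beside 1190 of all 7721, of which 81 lower). The median log2 difference was 0.09 in both sets, but -0.04 over all domains and -0.05 over these with total signal, and about 0 in both with lists centred on their medians, so its direction depended on the measure. A total of 1025 of the vehicle-only regions (81.3%) lay wholly inside such a domain. A domain near Dhx36 had maxima of 75 and 83 fragments with vehicle and 147 and 182 with GDF9 (log2 difference in scaled signal 1.07 ± 0.14 SE, limma adjusted p = 0.000555). In this domain, as in the called domains near Cops3 and Il7, the highest point lay outside the vehicle-only region.

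The exception was a domain whose nearest annotated gene was Tlr4. The distance to that gene is not given here, so the domain is not taken as part of it. In at least 1 library its highest point fell in the vehicle-only region chr4:67208883-67211257. Over the whole domain, 22.8 kb wide, the maxima were 74 and 74 fragments with vehicle and 134 and 150 with GDF9. The treatments did not overlap (log2 difference 0.95 ± 0.15 SE, limma adjusted p = 0.0017). In Smad2 HA/+ cells this domain was thus higher with GDF9. The maxima can lie anywhere in it, so the height of the vehicle-only region itself was not measured in each library. The domain was 1 of 101 whose highest point lay in a vehicle-only region in at least 1 library. The remaining 100 were uncalled, and the median log2 difference over the 101 was 0.06 (-0.13 with total signal). The calls depended on the fit: with total signal in place of the maximum 0 of the 885 were called, without GDF9 replicate 1 and without GDF9 replicate 2 0, and without vehicle replicate 1 and 2 it was 8 and 12.

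In Smad3 PA/PA cells each single SMAD2 or PA list had a peak at under 10% of the vehicle-only regions, and each SMAD4 list at 19.98% to 23.9%. SMAD2 peaks overlapped 7.61% and 3.49% of them with vehicle and 8.64% and 8.96% with GDF9, against 22.5%, 5.60%, 25.1% and 25.6% of the other vehicle regions. The GDF9 mean was 3.25 percentage points higher (exact permutation test, two-sided, p = 0.33, the smallest possible). The second vehicle list was short, with 23082 peaks against 78699 to 81283 in the other 3, and without it the difference was 1.19 points.

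PA peaks, which mark tagged SMAD3, overlapped 5.15% and 6.42% with vehicle and 4.68% and 4.60% with GDF9, 1.15 points lower with GDF9 (exact permutation test, two-sided, p = 0.33). Both GDF9 values lay below both vehicle values, by less than 2 points. PA peaks at the other vehicle regions fell too, and by more points, from a mean of 8.996% with vehicle to 7.08% with GDF9. The lower PA share with GDF9 was thus not particular to the vehicle-only regions. SMAD4 peaks overlapped 23.9% and 22.4% with vehicle and 22.998% and 19.98% with GDF9 (1.63 points lower, exact permutation test, two-sided, p = 0.667), and here the treatments overlapped. The other vehicle regions were 1.78 points higher with GDF9, from a mean of 39.0% to 40.8%. SMAD4, the shared partner of the activated SMADs, was the most frequent of the 3 at these regions in every library. No difference between treatments could pass 0.05 with 2 replicates, and the smallest p possible was 0.33.

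In the 12 SMAD lists of Smad3 PA/PA cells, 411 vehicle-only regions (32.6%) had no peak at all, compared with 24.9% of the regions kept in 1 GDF9 list and 13.2% of all others. In the 12 lists of Smad2 HA/+ cells 208 (16.5%) had none, compared with 7.99% and 2.34%, and 49 (3.89%) had a peak in every list, compared with 8.50% and 35.0%. The single lists of Smad3 PA/PA cells showed the same order, with PA peaks at 5.56% to 6.64% and SMAD4 peaks at 23.7% to 28.3% of the regions kept in 1 GDF9 list. HA peaks overlapped 37.5% and 43.7% of the vehicle-only regions with vehicle and 28.9% and 43.2% with GDF9, and SMAD3 peaks overlapped 39.2% and 42.0%, then 29.9% and 35.8%. For each of the 6 antibody and line combinations, the vehicle-only share was lower than that of the other regions in 4 of 4 libraries (exact paired permutation test, two-sided, p = 0.125 each, the smallest possible). Counting centres alone, the PA share was lower in 3 of 4. Height moved with this comparison, as the other regions were higher and wider, and its part was not tested.

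**Figure D3:**
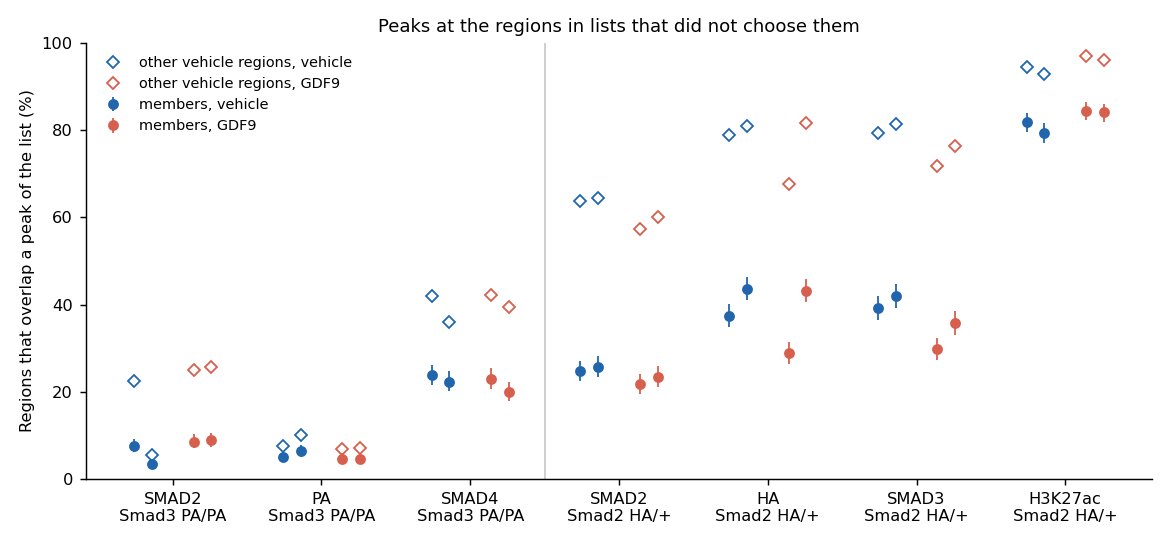
Share of regions that overlap a peak (y axis, %) in each of the 28 lists that did not choose them (x axis: antibody and line), for the 1261 vehicle-only regions (members, filled circles with 95% Wilson intervals, which cover counting error only) and the 20075 other vehicle regions (open diamonds). Filled circles lie below the diamonds of the same library in all 28 lists, from 3.49% for SMAD2 in 1 vehicle library to 84.5% for H3K27ac in Smad2 HA/+ cells.

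A total of 5 vehicle-only regions had SMAD2, PA and SMAD4 peaks in both GDF9 replicates, and these had such peaks in both vehicle replicates as well. The same count over the other vehicle regions was not made, so whether 5 is few or many is not known. The IgG samples were not used, so binding at these 5 cannot be told apart from background. The region at Cdk8, which encodes a kinase of the Mediator complex (chr5:146257272-146261432), had PA summits of 132 and 212 fragments with vehicle and 87 and 143 with GDF9. Its SMAD2 summits were 140 and 14 with vehicle and 124 and 125 with GDF9. A pair of regions in Sfi1 (chr11:3171125-3174772 and chr11:3161179-3164838) had PA summits of 43 to 66 fragments in all 4 libraries, and the remaining regions lay in 2700054A10Rik and C230088H06Rik. The median PA summit was 5 fragments in every list, so these 5 stood above it in both treatments. Repeats covered 97.8% of the region in 2700054A10Rik and 52.6% of the first in Sfi1.

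RNA of the genes near vehicle-only regions was compared between GDF9 and vehicle. In all 12597 genes tested with limma on log2(normalised count + 1), 396 (3.14%) passed both limits, a log2 change beyond 0.18 and an adjusted p under 0.05, 307 higher (2.44%) and 89 lower (0.707%). Of 415 tested genes with a start site within 3 kb of a vehicle-only region, 16 were higher and 4 lower with GDF9 (4.82% in all). Of 513 tested genes nearest to the distal ones, 17 were higher and 4 lower (4.09%). The same links made from the other vehicle regions gave 3.40% of 8849 and 4.50% of 3198 genes, and the median log2 change was -0.01 and -0.02 at vehicle-only regions against -0.01 over all genes. Genes that had no other vehicle region at any start site numbered 122 tested, with 3 higher and 2 lower.

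The 1261 regions linked to 513 annotated genes by start site and to 675 by the nearest start site within 100 kb, and 67 regions had none that near. Either link gave 885 tested genes and 38 called, 31 higher and 7 lower, and 46 regions were linked to a called gene. By DESeq2 on recovered reads the 20 and 21 calls were 8 and 11. Without GDF9 replicate 1 they were 11 and 15, without GDF9 replicate 2 34 and 35, without vehicle replicate 1 11 and 17, and without vehicle replicate 2 12 and 13. In bulk RNA, fewer cells of a type and less RNA per cell cannot be told apart.

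Among the genes that rose, Pmepa1 is the best known in this pathway, a membrane protein that TGF-beta signalling induces and that dampens it. Its levels were 1026 and 932 normalised counts with GDF9 and 761 and 719 with vehicle, without overlap (log2 change 0.40 ± 0.06 SE, limma adjusted p = 5.62e-05). The vehicle-only region lay 609 bp from a start site (chr2:173230871-173234113), had 7 and 14 fragments, and was 23058 bp from the nearest GDF9 peak. Another vehicle region lay at a start site of the same gene. No SMAD list of Smad3 PA/PA cells had a peak at the vehicle-only region, and all 4 Smad2 HA/+ H3K27ac lists did.

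Kmt2a encodes a histone H3 lysine 4 methyltransferase, and its level was 1333 and 1237 with GDF9 and 981 and 912 with vehicle (log2 change 0.44 ± 0.06 SE, limma adjusted p = 3.37e-06). Its region covered a start site and spanned chr9:44842451-44848670 with 11 and 12 fragments, and the summit fell in an intron over 3 kb from any start site. Tanc2, which encodes a scaffold protein, had 821 and 820 with GDF9 and 589 and 609 with vehicle, with an intronic region 63874 bp from the nearest start site. Ccnl1, a cyclin gene linked to splicing, had 634 and 581 against 448 and 444. Cplane1, a gene of cilium assembly, had 558 and 558 against 434 and 419, and Cers5, a ceramide synthase gene, had 1288 and 1353 against 1068 and 1025. In each of these 5 the GDF9 levels lay above both vehicle levels, and together with Pmepa1 they were called in all 4 fits that left out a library and by DESeq2. Each of the 5 also had another vehicle region, which overlapped a GDF9 peak, at a start site.

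The remaining increases among the 10 largest were less stable. The largest was A530020G20Rik, a transcript of no known role at the region shared with Slc44a3, which had 174 and 174 normalised counts with GDF9 and 98.8 and 131 with vehicle (log2 change 0.61 ± 0.14 SE, limma adjusted p = 0.00625), and it was not called without vehicle replicate 1. Fam13a (0.57), Itga2 (0.42), which encodes the collagen receptor subunit integrin alpha 2, and Dock6 (0.36), an exchange factor gene for small GTPases, were each lost in 2 of the 4 fits that left out a library. For Fam13a and Dock6 these were the fits without GDF9 replicate 1 and without vehicle replicate 2, and for Itga2 those without GDF9 replicate 1 and without vehicle replicate 1. No Smad2 HA/+ H3K27ac list had a peak at the Fam13a region. A530020G20Rik and Fam13a had another vehicle region at a start site, and Itga2 and Dock6 did not.

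Of the genes that fell, Plau encodes urokinase, the protease that activates plasminogen and takes part in matrix breakdown around ovulation. Its levels were 503 and 515 normalised counts with GDF9 and 699 and 670 with vehicle, without overlap (log2 change -0.43 ± 0.07 SE, limma adjusted p = 7.23e-05). Its region (chr14:20830346-20833905) had 8 and 8 fragments, lay 2755 bp from the start site and was the only vehicle region there, 208 bp from a GDF9 peak. A SMAD2 peak of 1 GDF9 library overlapped it, and 11 of 12 SMAD lists and all 4 H3K27ac lists of Smad2 HA/+ cells had a peak.

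Fkbp5, a co-chaperone of steroid receptors, had 4154 and 4308 with GDF9 and 5059 and 5027 with vehicle (log2 change -0.25 ± 0.04 SE, limma adjusted p = 3.63e-05), with a region 15182 bp away. Plau and Fkbp5 were called in all 4 fits that left out a library and by DESeq2. The other 5 decreases, at Mtss2 (-0.44), Add3 (-0.24), Abracl (-0.23), Plekho2 (-0.22) and Asap1 (-0.18), each lost the call in 2 or 3 of those fits, always including a vehicle replicate. Regions covered the start sites of Mtss2, Abracl and Asap1. That of Mtss2 was its only vehicle region there, while Abracl and Asap1 had another.

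**Figure D4:**
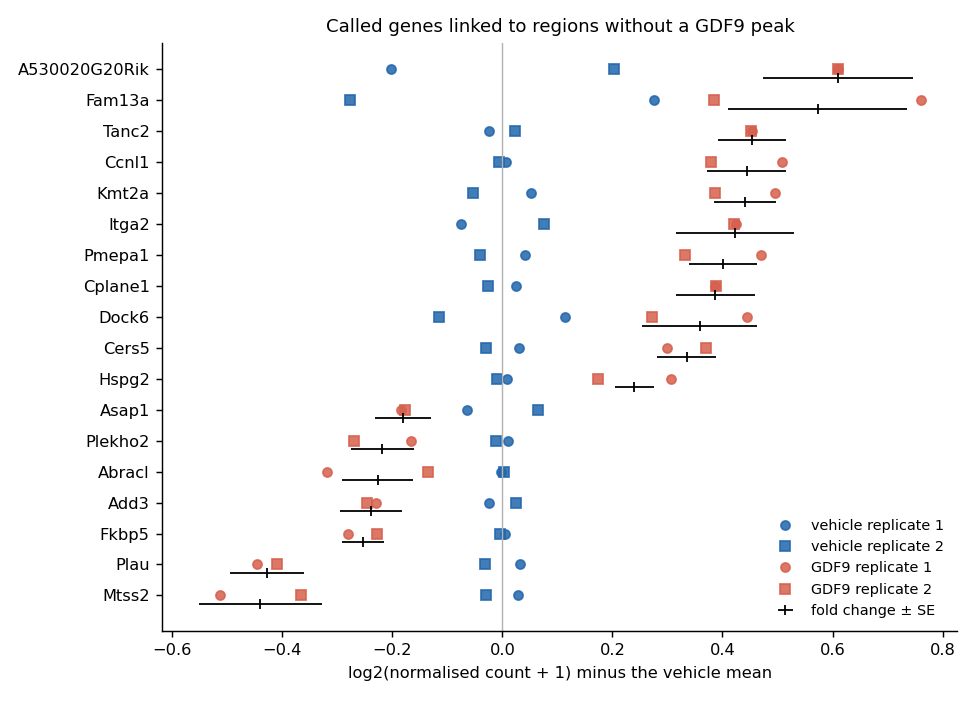
RNA level of each replicate relative to the vehicle mean (x axis, log2(normalised count + 1)) for the called genes named in the text (y axis), with the fitted fold change ± SE (black). The 2 GDF9 points lie to the right of both vehicle points for the 11 genes that rose, Hspg2 included, and to the left for the 7 that fell.

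Genes of the ovarian and signalling lists were linked to vehicle-only regions to differing extents, beside 885 of the 12597 tested genes in all. Of 37 matrix and adhesion genes 8 were linked, and of these Itga2 and Hspg2, the basement membrane proteoglycan perlecan, rose. Hspg2 had 17968 and 16388 normalised counts with GDF9 and 14622 and 14437 with vehicle (log2 change 0.24 ± 0.04 SE, limma adjusted p = 3.56e-05), with 2 intronic regions, and was not called without GDF9 replicate 1. Fn1, which encodes fibronectin, had a region over a start site (7 and 9 fragments) that was its only vehicle region there, and levels of 5892 and 5697 with GDF9 and 5332 and 5512 with vehicle (log2 change 0.10 ± 0.04 SE, limma adjusted p = 0.172). Itga3, Lamb1, Cdh2, Col4a2 and Col4a6 had log2 changes of -0.11 to 0.01 and were not called. Over that whole list 5 of 36 tested genes were higher and 2 lower.

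Of 20 SMAD2/3 feedback and target genes only Pmepa1 was linked, while 16 had another vehicle region at a start site, and 4 of 19 tested were higher and 0 lower by limma. Of 28 TGF-beta family receptors and ligands, Bmpr1b and Smad3 were linked, and 1 of 26 tested was lower. Smad3 itself had 605 and 537 normalised counts with GDF9 and 640 and 582.1 with vehicle (log2 change -0.10 ± 0.07 SE, limma adjusted p = 0.561), with an intergenic region 33171 bp from its start site (10 and 16 fragments). Cd44, the hyaluronan receptor gene, and Plau were linked among 17 cumulus expansion and ovulation genes, and the log2 change of Cd44 was -0.20 ± 0.09 (SE, limma adjusted p = 0.245). Single genes were linked among the immediate early (Ier5), WNT (Lrp5) and cell cycle lists (Cdk6), 2 among the MAPK feedback genes (Spred2 and Mapk10), of which Mapk10 was not tested and none was called. None of the 10 granulosa markers was linked, and 7 had another vehicle region at a start site. Beside 885 of 12597 tested genes linked in all, 0 of 10 is near the general share and is not a trait of these markers.

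The summit windows of the vehicle-only regions held the SMAD core in about the same share as those of other regions. Within 200 bp on either side of the summit, CAGAC was found on either strand in 64.6% (95% Wilson interval 62.0 to 67.2), against 63.6% of the other vehicle regions. The GC-rich SMAD core GGCGC was found in 14.8% against 24.1%, the SP/KLF core GGGCGG in 9.52% against 18.4% and the CRE core TGACGT in 3.25% against 6.07%. Regions kept in 1 GDF9 list lay between, at 15.4%, 10.7% and 4.88% for these 3 cores. These 3 hold a CpG, and the windows had a median GC content of 44.4% against 46.6%. The core of GATA factors, AGATAA, was found in 25.5% against 21.7%, the RUNX core TGTGGT in 28.9% against 25.8% and the FOX core TGTTTAC in 8.41% against 6.47%, and the regions kept in 1 GDF9 list had 24.7%, 29.8% and 6.84%.

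Several of these differences were smaller away from start sites. With the summit over 3 kb from every start site, GGCGC was found in 9.38% against 8.89%, GGGCGG in 5.02% against 5.52% and AGATAA in 28.5% against 27.5%. The AP-1 core TGANTCA differed more there, at 22.1% (95% Wilson interval 19.5 to 24.9) against 27.9%, although it was 19.7% against 20.9% over all windows, and TGACGT was at 2.68% against 4.86%. The NR5A core AAGGTCA was found in 10.9% and 10.7% of all windows, the TEAD core CATTCC in 23.8% and 23.1% and the NF1 core TTGGCA in 19.98% and 19.9%. The GGCGC and GGGCGG cores can overlap each other. A core is a string of letters in the reference and not a bound site.

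**Figure D5:**
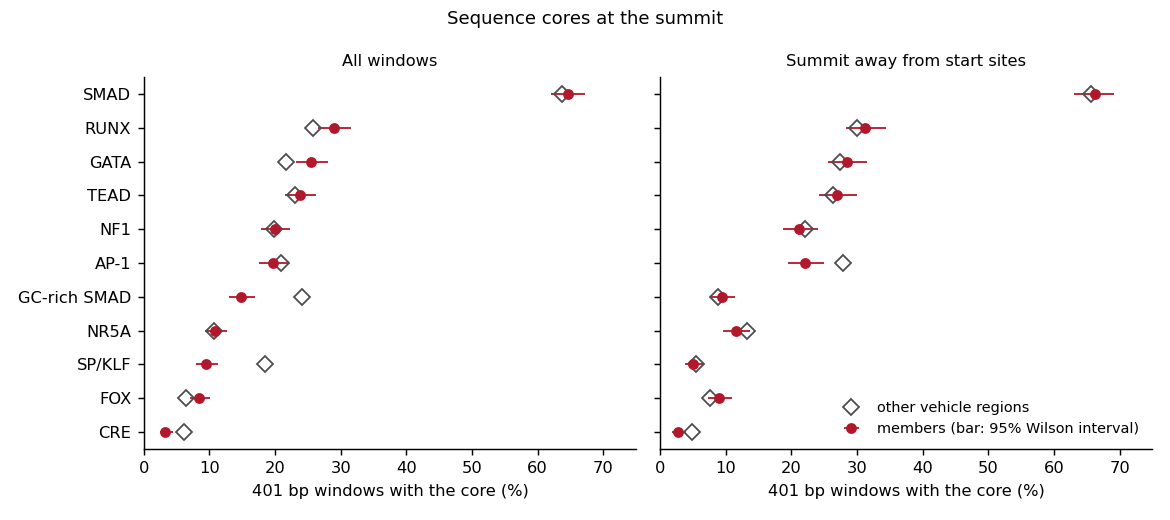
Share of summit windows (200 bp on either side) that hold each core on either strand (x axis, %), for all windows (left) and for summits over 3 kb from a start site (right), in vehicle-only regions (members, red, 95% Wilson intervals for counting error) and other vehicle regions (open diamonds). The left panel separates the GC-rich SMAD and SP/KLF cores (14.8% against 24.1% and 9.52% against 18.4%), and the right panel the AP-1 core (22.1% against 27.9%).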

How the data were processed

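CUT&RUN (antibody-directed cleavage and sequencing of chromatin) was profiled in Smad3 PA/PA and Smad2 HA/+ granulosa cells, and 32 peak lists were used. The authors aligned reads with Bowtie2 to mm10, scaled coverage to E. coli spike-in fragments and called peaks per library with SEACR, so each deposited list gives the total and the maximum signal of a peak. Whether IgG served as control is not given in the sources used here, and the IgG samples were not used here. RNA reads were aligned with STAR 2.7.11b and counted with featureCounts 2.1.1, and the deposited values are counts divided by size factors (signal per gene), from DESeq2 1.48.2. The totals correspond to 10146695 and 10517816 reads with GDF9 and 8827825 and 11416005 with vehicle. Of the values checked, 100% were whole multiples of 1 step (tolerance 0.05 reads), and the very highest were not checked. A total of 3 columns without a header, and the authors' mean of the 4 libraries, were not used.

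Peaks on the 19 autosomes, X and Y that overlapped by 1 bp were joined across both vehicle replicates, and regions without a peak in either GDF9 list were kept. Genes came from GENCODE vM21 (GRCm38), and 98.4% of tested genes were linked to it by Entrez ID or symbol. The vehicle-only regions, the gene lists and the cores were chosen with earlier results of these data known. Named regions are the 10 highest by mean maximum, the 5 widest, those with the same pattern in Smad2 HA/+ cells and those with all 3 SMAD antibodies in both GDF9 replicates. Named genes are linked genes called in the RNA fit, at most 10 each way by size, and linked genes of the lists, of which 1 list is not reported here. Genes at the edge of the selection, and domains called by height, were named after their values were seen.

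Since the deposited RNA values are normalized, log2(value + 1) was fitted with limma 3.58.1 (R 4.3.3, moderated variances with a mean trend, treatment as the sole term), leaving out genes whose mean was below 10. Whole reads recovered from them went into the alternatives, edgeR 4.0.16 by quasi-likelihood and DESeq2 1.42.0. Shares of regions per library were compared with exact permutation tests, and intervals are 95% Wilson intervals, which cover counting error only. Python 3.11.15 (pandas 2.3.3, numpy 2.4.6, scipy 1.17.1, matplotlib 3.10.9) was used for overlaps. Region building, overlaps, the core search, the exact tests and the limma fits were tested on simulated data, and the other steps were not. All p-values adjusted over genes or domains follow Benjamini and Hochberg, over the whole table.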

Additional observations from a re-analysis of the deposited data

Results flagged for a closer look

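The share of vehicle-only regions with a SMAD2 peak moved in opposite directions in the lines. In Smad3 PA/PA cells both GDF9 libraries lay above both vehicle libraries (mean difference 3.25 percentage points), and in Smad2 HA/+ cells both lay below (mean difference -2.58 percentage points, from 24.7% and 25.7% to 21.8% and 23.5%). The difference between the lines was not tested. The other vehicle regions moved the same ways, by 11.3 and -5.37 points, and the short list of Smad3 PA/PA vehicle replicate 2 is part of the first value.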

How the results depend on the processing

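Threshold and library choices changed the number of vehicle-only regions. It was 969 when replicate peaks had to share 50% of both, 1121 when no GDF9 peak could lie within 1 kb, 74 when only the 50% of each vehicle list with the highest maximum was used, 4639 and 4481 without vehicle replicate 1 and 2, and 2759 and 2715 without GDF9 replicate 1 and 2. The share at a promoter was 29.7% with a 1 kb limit and 31.1% for the 74 regions. The differences in shares of SMAD2, SMAD4 and Smad2 HA/+ H3K27ac peaks kept their direction in every alternative run. That of PA peaks turned to 0.676 points for the 74 regions. Leaving out 1 library gave between 1.19 and 5.31 points for SMAD2, -1.78 and -0.515 for PA, and -3.13 and -0.119 for SMAD4.

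The number of domains called by height among the 885, 4 as reported, was 0 with total signal, 2 with lists centred on their medians, and 0 to 12 with 1 library left out. Calls among genes with a start site near a region, 20 as reported, were 8 without the filter on low values, 8 with DESeq2, 19 with edgeR, 1 for the 74 regions, and 11 to 34 with 1 library left out. Calls among the nearest genes, 21 as reported, were 11 without the filter, 11 with DESeq2, 22 with edgeR, 0 for the 74 regions (24 genes tested, by limma), and 13 to 35 with 1 library left out. Over all genes the 396 calls became 187 without the filter, 133 with DESeq2, 406 with edgeR, 535 with a replicate block and 215 to 583 with 1 library left out. The causes were not tested.

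The labels do not say whether equal replicate numbers pair the samples, and the main fits did not pair them. The correlation of deviations between equal numbers was 0.005 for RNA and 0.03 for Smad2 HA/+ H3K27ac, which gave no sign of pairing but cannot settle it. With a replicate block, 48 of the 885 domains (1 lower) and 439 of all 7721 were called, and 24 and 25 genes, including all 20 and 21 reported.

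In windows of 100 bp on either side of the summit the cores were found in 42.5% (SMAD), 9.83% (GC-rich SMAD), 10.2% (AP-1), 5.63% (NR5A), 11.7% (GATA), 4.04% (FOX), 15.5% (RUNX), 12.3% (TEAD), 1.67% (CRE), 9.60% (NF1) and 4.52% (SP/KLF), as fewer bases were searched. The comparison with other regions turned for AP-1 (9.60% in others) and NF1 (10.6% in others), and also for NR5A (5.65%) and TEAD (12.35%), which differed little. In the 73 of the 74 regions with a window the values were 19.2% (GC-rich SMAD and SP/KLF), 6.85% (NR5A, FOX and CRE), 30.1% (GATA), 26.0% (RUNX) and 34.2% (TEAD). Beside all other vehicle regions, the comparison turned here for SP/KLF (18.4% in others), CRE (6.07%) and NR5A (10.7%). Median summits of 9 and 10 fragments limit the precision of the heights.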
